A study of Rattus norvegicus with 9 samples.

Results

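The Cal and model table listed 287 genes whose deposited biotype was other than protein_coding. After 6 mitochondrial transfer RNA genes, whose names begin with mt-, were set aside, 281 noncoding and pseudogene entries of 4288 listed genes remained and are described here, beside 4001 protein-coding genes. The table lists only genes that passed the authors' own test on these same libraries. Every test below repeats that selection and is no independent evidence that an entry changed.

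RNA came from heart tissue of male Sprague Dawley rats, 3 animals picked at random from each group. In the model and Cal groups, heart failure (HF) was induced by tying off the left anterior descending coronary artery. The sham rats, called control in the labels, had the operation without the ligature. Rats of the Cal group received calycosin (Cal), an isoflavonoid of the herb Astragalus, by mouth at 80 mg/kg per day for 28 days, and the model and sham rats received distilled water. The libraries were made from RNA with a poly(A) tail by a kit that keeps no strand, so reads of a gene and of a transcript on the opposite strand cannot be told apart.

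Values are the authors' normalized counts, which are reads divided by one size factor per library. Reads on the listed genes ranged from 2860826 to 3998471 per library. The headings of this table contradict each other: averaging the 3 sample columns headed Cal gives the authors' mean column headed Model, and the reverse. Libraries are therefore named by their sample headings, 3 Cal-headed and 3 Model-headed, and each fold change is Cal-headed over Model-headed. By the mean columns, every direction in this comparison would be the opposite.

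A long noncoding RNA is a transcript with no known protein product, and such RNAs may act themselves or serve as hosts, whose introns or exons are cut into microRNAs or small nucleolar RNAs. A pseudogene is a copy of a gene that has lost its reading frame, and a processed pseudogene is a copy of a spliced messenger RNA put back into the genome, often so like its parent gene that reads can be shared between them. A polymorphic pseudogene is intact in some strains and broken in the reference strain, and TEC marks a transcript region whose kind still awaits an experiment. All of these terms were set for the mouse: the table gives mouse Ensembl identifiers and mouse chromosomes for rat reads, so a biotype here says what the gene is in the mouse annotation. By the methods of the paper, reads were aligned to rat sequences, which conflicts with the mouse identifiers and coordinates of the table. The submitters' processing notes list mm8 and mm9, and the genome build of the table is not given in the sources used here. The species of the sequences on which reads were counted is thus unresolved. Whether the rat microRNA and promoter sequences belong to the loci that were counted was not tested.

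The microRNAs tied to listed entries are shown first, since these RNAs are the known products of their hosts. H19 holds miR-675, Mir22hg holds miR-22, Dnm3os holds miR-199a and miR-214, and Mir208b is the miR-208b gene itself, which lies in an intron of the beta myosin heavy chain gene Myh7. Mature rat sequences are from RefSeq (GRCr8), and capitals mark the seed, bases 2 to 8, which pairs with target messenger RNAs. The mature RNAs were not measured by these libraries. No seed is shared among them.
rno-miR-675-5p: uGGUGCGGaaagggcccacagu
rno-miR-675-3p: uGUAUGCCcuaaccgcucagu
rno-miR-22-3p: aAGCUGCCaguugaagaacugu
rno-miR-199a-5p: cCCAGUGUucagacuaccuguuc
rno-miR-214-3p: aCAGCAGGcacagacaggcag
rno-miR-208b-5p: aAGCUUUUugcucgcguuau
rno-miR-208b-3p: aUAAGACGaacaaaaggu

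The polymorphic pseudogenes Cxcl11 and Oas1b carry rat symbols that RefSeq lists as protein-coding. Their rat promoters are shown because interferon acts on such genes through short promoter motifs, and these were the entries whose promoter held a match to one searched here. Each run holds 250 bases before and 50 after the RefSeq start of the gene, with build GRCr8. Capitals mark matches to the interferon-stimulated response element (ISRE, read as GAAA, any 2 bases and GAAA) or to the gamma-activated site (GAS, read as TTCNNNGAA), searched on both strands. The ISRE is in 3.92% of 33469 rat promoters of this length and the GAS in 8.87%. Of the 10 members with a promoter entry, 1 held the ISRE and 2 the GAS. In Cxcl11 (chr14:15973478-15973777, plus strand) the capitals are a GAS match from -250 to -242 of the start. In Oas1b (chr12:41395803-41396102, minus strand) they are a GAS match from -213 to -205 and a pair of overlapping ISRE matches from -59 to -50 and from -53 to -44. A match of letters is a description and not a binding site.
Cxcl11: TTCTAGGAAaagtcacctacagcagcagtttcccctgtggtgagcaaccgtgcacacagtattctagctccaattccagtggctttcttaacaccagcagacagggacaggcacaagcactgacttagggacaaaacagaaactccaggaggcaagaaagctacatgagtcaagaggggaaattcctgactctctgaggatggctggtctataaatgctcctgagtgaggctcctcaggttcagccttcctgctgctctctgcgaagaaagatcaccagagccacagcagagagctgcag
Oas1b: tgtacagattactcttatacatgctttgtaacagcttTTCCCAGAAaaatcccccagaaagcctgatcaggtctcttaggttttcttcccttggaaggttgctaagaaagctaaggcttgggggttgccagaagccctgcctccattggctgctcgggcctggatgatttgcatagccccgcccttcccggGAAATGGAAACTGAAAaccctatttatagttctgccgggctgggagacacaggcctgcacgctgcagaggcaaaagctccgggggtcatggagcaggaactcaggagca

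By biotype, the 281 entries fell into 152 long noncoding RNAs (57 lincRNA, 56 antisense, 30 processed_transcript, 6 bidirectional_promoter_lncRNA and 3 sense_intronic), 103 pseudogenes (64 processed, 17 unprocessed, 8 transcribed_unprocessed, 7 polymorphic, 5 transcribed_processed and 2 with no further class), 23 TEC entries, 2 microRNA entries and the immunoglobulin kappa constant gene Igkc. An entry was called where limma on log2(normalized count + 1) gave a Benjamini-Hochberg adjusted p under 0.05 over all 4288 genes and the log2 fold change was beyond 1. Of the 281 entries, 228 were called (81.1%), against 60.1% of all listed genes. In the Cal-headed libraries, 71 were higher (25.3%, against 28.4% of all listed genes) and 157 lower (55.9%, against 31.6%). The median log2 fold change was -1.31 over the entries, or -1.14 with entries at 0 in a whole group placed at their bounds, and -0.52 over all listed genes. Values of the 3 libraries of a group did not overlap those of the other in 268 entries, a count that says little here since 98.2% of all listed genes did the same, and 277 passed the adjusted p alone, where 99.6% of all listed genes did.

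The lean towards the Model-headed libraries was widest in pseudogenes and TEC entries and narrow in long noncoding RNAs. Of the 103 pseudogenes, 63 were called lower and 10 higher in the Cal-headed libraries, with a median log2 fold change of -1.32. Of the 23 TEC entries, 18 were called lower and 3 higher, with a median of -1.88. Of the 152 long noncoding RNAs, 75 were called lower and 56 higher, with a median of -0.99. Antisense entries split almost evenly, with 26 lower and 23 higher, and so did lincRNAs, with 27 lower and 23 higher. Processed transcripts were lower in 16 and higher in 8. Both microRNA entries were higher, and Igkc, the constant region of antibody light chains, was lower (15.7, 9.39 and 42.7 normalized counts in the Cal-headed libraries, 71.3, 91.5 and 50.8 in the Model-headed ones).

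Scaling moved these splits. The median log2 fold change of all listed genes was -0.52 as deposited, -0.23 after median-ratio scaling over the listed genes and -0.10 after quantile normalization, and the share of lower calls among all listed genes fell from 52.7% to 38.9% under median-ratio scaling. Under that scaling, 51 pseudogenes were lower and 11 higher, while long noncoding RNAs stood at 69 lower and 66 higher. Under quantile normalization, 62 pseudogenes were lower and 9 higher. Without Model 2 and Cal 3 together, a choice made after the data were seen, 45 pseudogenes were lower and 7 higher, and 63 long noncoding RNAs lower and 43 higher.

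**Figure D1:**
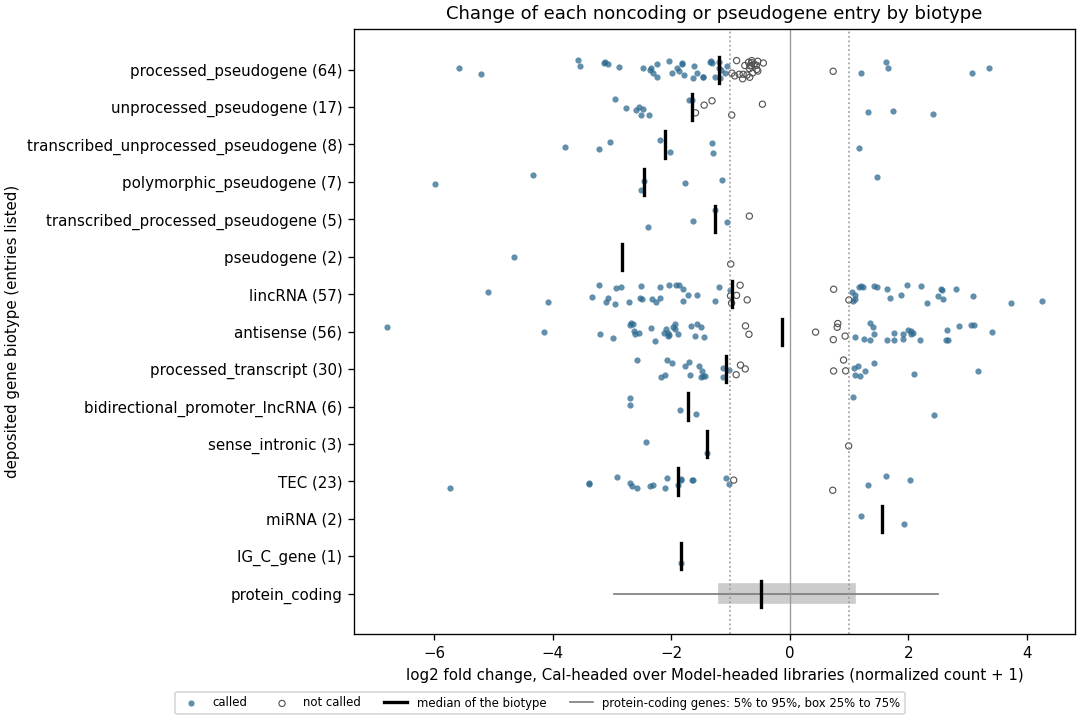
Each point is 1 entry, placed by its log2 fold change (Cal-headed libraries over the Model-headed ones, x axis) within its deposited biotype (y axis, number listed in brackets); filled points were called, open points were not, thick bars are medians, dotted lines stand at a log2 fold change of 1 either way, and the bottom row gives the range of 4001 protein-coding genes. Pseudogene biotypes lie mostly to the left of 0, with 63 of 103 pseudogenes called lower and 10 higher, while antisense entries lie on both sides.

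Most entries were weakly expressed. The median normalized count was 37.8 over the entries and 286 over protein-coding genes. Per kilobase of deposited gene length, which allows genes to be compared, the medians were 23.3 and 63.2, and by class 56.5 for pseudogenes, 13.0 for long noncoding RNAs and 6.79 for TEC entries. Of the entries, 62 (22.1%) averaged under 10 normalized counts, against 3.37% of protein-coding genes. In 55 entries (19.6%) every library of a group held at most 3 reads, 41 of them in the Cal-headed group and 14 in the Model-headed group, and the same held for 3.75% of protein-coding genes.

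The share of calls fell as the level rose. Below 10 normalized counts, 100% of the entries and 99.3% of protein-coding genes were called. Between 10 and 100, 88.1% of 143 entries and 88.2% of 930 protein-coding genes were called, and at 100 or more the shares were 52.6% of 76 entries and 47.3% of 2936. The higher share of calls among the entries as a whole thus stood beside their lower level. The lean went opposite ways only between 10 and 100, where 79 entries were lower and 47 higher, whereas 315 protein-coding genes were lower and 505 higher. At 100 or more both leaned lower, with 32 entries lower and 8 higher, and 800 protein-coding genes lower and 588 higher. Both also leaned lower below 10, with 46 entries lower and 16 higher, and 82 protein-coding genes lower and 52 higher. These are counts over genes of the same 6 libraries and carry no test.

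In 21 entries a whole group was at 0, 16 of them in the Cal-headed libraries and 5 in the Model-headed ones. The folds of these entries are lower bounds, set against 3 reads per library. Among them, picked after the values were seen, the lincRNA Gm32089 was at least 4.13-fold higher and the TEC entry Gm43181 at least 4.04-fold higher in the Model-headed libraries. The lincRNA Gm32688 was at least 3.93-fold higher and Foxd2os, a transcript beside the forkhead gene Foxd2, at least 3.08-fold higher in the Cal-headed libraries.

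The entries together took 1.23%, 1.23% and 1.24% of listed normalized counts in the Cal-headed libraries and 1.50%, 1.57% and 1.35% in the Model-headed ones. The groups did not overlap, and the exact two-sided permutation test gave p = 0.1, the smallest that 3 against 3 allows. Pseudogenes took 0.590% ± 0.0162 (SD, n = 3) in the Cal-headed libraries and 0.938% ± 0.108 in the Model-headed ones. As a share, long noncoding RNAs went the other way, with 0.559% ± 0.0113 and 0.486% ± 0.0175. Each of these class differences also had an exact p of 0.1. A share depends on the total over the listed genes, which was larger in the Model-headed libraries. It held 3501023 to 3998471 reads there and 2860826 to 3341738 in the Cal-headed ones. In summed normalized counts, long noncoding RNAs were lower in every Cal-headed library, so their higher share reflects that total. Counted per kilobase, the share of all entries reversed, to a mean 1.77 percentage points higher in the Cal-headed libraries, and it was 0.475 points lower once the 57-base entry Gm23935 was left out.

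The Model-headed replicates were the more spread. Over entries with a mean of at least 10 in the group, the median coefficient of variation was 32.4% in the Model-headed libraries and 16.2% in the Cal-headed ones. All listed genes showed a similar gap, with 21.9% and 11.5%, so it is not particular to the entries. Library Model 2 was the highest of its group in 124 of 225 such entries (55.1%), against 41.3% of all listed genes, and Cal 3 was the highest in 72 of 186 (38.7%), against 39.9%. Without Model 2, 201 entries were called.

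Entries ranked among the 10 largest falls or rises had to have groups that do not overlap, so that separation is no result. The 10 largest falls included Cxcl11, Gm12250 and Gbp11, which belong to interferon-inducible families. Gm10851, the largest, is an antisense entry (ENSMUSG00000102329, mouse chromosome 2, 11521706 to 11530836 in the deposited coordinates) opposite Pfkfb3, whose enzyme drives glycolysis. It had 2.77, 7.51 and 5.12 normalized counts in the Cal-headed libraries and 659.8, 939 and 433 in the Model-headed ones, a log2 fold change of -6.80 ± 0.39 (SE; limma adjusted p = 8.27e-05). The TEC entry Gm37975, in the same gene on its own strand, had 2.77, 4.69 and 8.54 against 279.7, 565 and 192. Cxcl11, an interferon-inducible chemokine that draws T cells through Cxcr3, had 6.46, 17.8 and 90.5 against 987, 2741 and 1222 (log2 fold change -5.99 ± 0.85, limma adjusted p = 0.000882). Its replicates were widely spread in both groups, with Cal 3 highest in one and Model 2 highest in the other. Gm10851, Gm37975 and Cxcl11 were each still called when any 1 library was left out. Since they were picked for large changes in the same libraries, that is no independent support.

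Gm12250, which encodes the interferon-inducible GTPase Irgb10 despite its label as a processed pseudogene, was among the most abundant entries, with 73.8, 72.3 and 319 normalized counts against 4654, 9748 and 4234 (log2 fold change -5.58 ± 0.60, limma adjusted p = 0.000329). Gbp11, of the guanylate-binding proteins that interferon induces, had 3.69, 2.82 and 23.1 against 122, 339 and 82.4. In both genes Cal 3 and Model 2 were again the highest of their groups. Serpina3h, a relative of the acute-phase protease inhibitors of the Serpina3 family, had 9.22, 8.45 and 11.1 against 138, 161 and 136 (log2 fold change -3.79 ± 0.24, limma adjusted p = 8.93e-05), with close replicates in each group. BC023105, a pseudogene, had 111, 38.5 and 127 against 2529, 3785 and 944. The other large falls were the processed pseudogenes Gm6545 (2 reads in all in the Cal-headed libraries, a ratio of means of 116-fold with a 95% exact interval of 27.9 to 852 for counting error only) and Gm5970 (log2 fold change -3.57) and the lincRNA 1200007C13Rik (-5.10).

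Rises in the Cal-headed libraries were smaller and mostly in long noncoding RNAs. H19, an imprinted lincRNA of the fetal growth locus that is expressed from the maternal copy, had 962, 667 and 1059 normalized counts in the Cal-headed libraries and 58.3, 92.7 and 194 in the Model-headed ones (log2 fold change 3.10 ± 0.42, limma adjusted p = 0.000712). Groups that do not overlap were again a condition of the ranking, and Model 3 was the highest of its group. The antisense entry Gm12002 had 83.9, 60.1 and 63.2 against 15.1, 4.88 and 1.92 (log2 fold change 3.41 ± 0.59, limma adjusted p = 0.00182), and the antisense entry Gm10435 had 173, 162 and 136 against 16.2, 9.76 and 31.6 (3.11 ± 0.40, adjusted p = 0.00063). In Gm12002 the Model-headed libraries were all low but unequal, while the Cal-headed ones lay close together.

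Further large rises were the antisense entries Gm11730 (log2 fold change 2.20), D830039M14Rik (1.91) and Gm19461 (1.77), the processed transcript 6430562O15Rik (2.11), the lincRNA Gm34934 (1.47) and the processed pseudogene Gm12411 (1.62). Prr33, a lincRNA in the table whose symbol RefSeq lists as protein-coding in the rat, rose by 1.43 on the same scale, from 38.9, 69.5 and 70.0 normalized counts in the Model-headed libraries to 165, 156 and 149 in the Cal-headed ones.

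**Figure D2:**
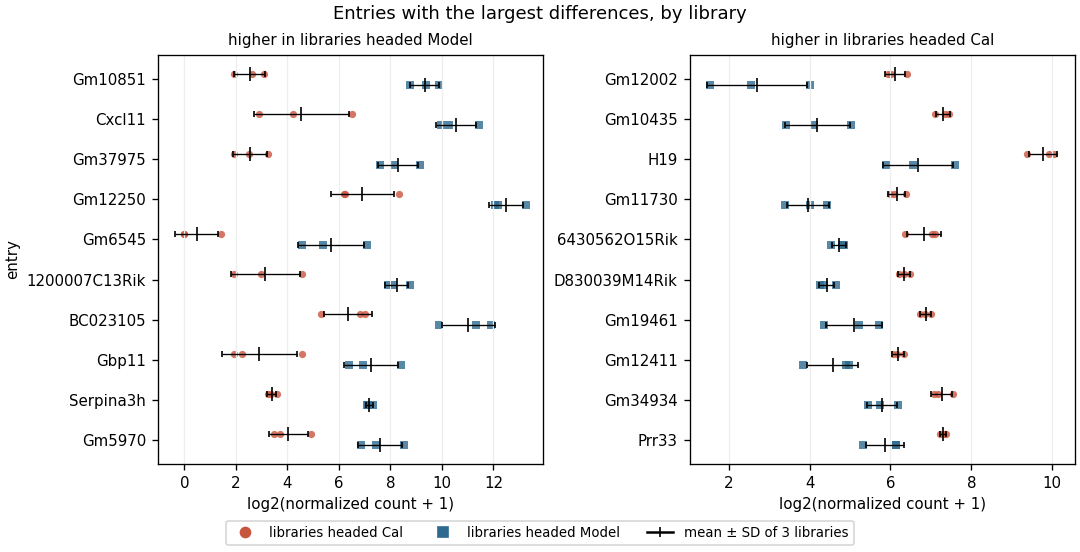
Points are single libraries on a log2(normalized count + 1) scale (x axis) for the 10 entries with the largest falls and the 10 with the largest rises (y axis), with circles for Cal-headed libraries and squares for the Model-headed ones; ticks with bars are the mean ± SD of 3 libraries. Groups that do not overlap were a condition for an entry to be shown, and the widest spread between Cal-headed replicates is seen in Cxcl11.

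Small nucleolar RNA host genes carry in their introns the guide RNAs that direct chemical changes of ribosomal RNA, and their spliced RNAs are mostly short-lived. All 7 listed hosts had higher values in the Model-headed libraries, 6 of them called lower in the Cal-headed ones, where 31.6% of all listed genes were called lower. The same direction was kept under quantile normalization and median-ratio scaling. Gas5, named for its rise in growth-arrested cells, had 265, 229 and 208 normalized counts in the Cal-headed libraries and 562, 539 and 437 in the Model-headed ones (log2 fold change -1.13 ± 0.17, limma adjusted p = 0.00105). The groups were apart, but the change was -0.98 under quantile normalization and -0.83 under median-ratio scaling, short of the limit of 1. Snhg1 had 83.9, 88.2 and 63.2 against 228, 227 and 201 (-1.48 ± 0.20, adjusted p = 0.000706), and Snhg5 had 35.1, 49.7 and 21.4 against 139, 173 and 132 (-2.11 ± 0.32, adjusted p = 0.00116).

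Snhg17 had 31.1 ± 5.03 normalized counts (SD, n = 3) against 126 ± 23.1 (log2 fold change -1.98 ± 0.24), and Snhg15 had 18.4, 14.1 and 17.1 against 68.0, 43.9 and 58.5 (-1.71 ± 0.28). Both showed groups far apart. Snhg12, a called host at -1.01, was short of the limit in 6 alternatives, from -0.99 without Model 2 to -0.72 under median-ratio scaling, where the adjusted p was 0.0523. Zfas1, a host that starts opposite the Znfx1 gene, was not called, with 116, 87.3 and 114 against 123, 204 and 221 (log2 fold change -0.75 ± 0.27). Its lowest Model-headed library lay close to its highest Cal-headed library.

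Of 17 entries in a list of nuclear and imprinted RNAs, 3 were listed in the table, and all were higher in the Cal-headed libraries. Beside H19, Meg3, which is expressed from the maternal copy of the Dlk1 locus, had 129, 130.5 and 112 normalized counts against 56.2, 54.9 and 52.7 (log2 fold change 1.16 ± 0.19, limma adjusted p = 0.00139). The replicates of Meg3 were close in both groups. Peg13, expressed from the paternal copy, had 805, 669 and 755 against 399.6, 298 and 430.3, and its change of 0.995 ± 0.18 fell just short of the limit, which it passed under quantile normalization (1.28) and median-ratio scaling (1.29).

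Entries tied to microRNAs went in both directions. Mir208b had 40.6, 31.9 and 36.7 normalized counts in the Cal-headed libraries and 5.40, 4.88 and 24.0 in the Model-headed ones (log2 fold change 1.93 ± 0.56, limma adjusted p = 0.0122), with Model 3 well above the other two libraries of its group. Mir22hg, host of a microRNA abundant in heart muscle, had 139, 134 and 125 against 260.3, 367 and 479 (-1.43 ± 0.24, adjusted p = 0.00152), with close Cal-headed replicates and spread Model-headed ones. Since the reads came from RNA with a poly(A) tail, the values on Mir208b (mouse chromosome 14, 54975700 to 54975776) are reads on a short stretch of precursor or host RNA and not the mature RNA whose sequence is given above.

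Gm23935, the other microRNA entry, is 57 bases long and had 1669.6, 1682 and 1784 normalized counts in the Cal-headed libraries and 365, 1257 and 897 in the Model-headed ones (1.20 ± 0.41, limma adjusted p = 0.0206). Per kilobase, its mean of 22383 was the highest of all entries. The groups were apart, but Model 1 was far below its replicates, and without it the log2 fold change was 0.69, short of the limit.

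Dnm3os, antisense within the dynamin gene Dnm3, was the only one of 12 entries in a list of cardiac and vascular RNAs that was in the table. It had 46.1, 129.5 and 92.2 normalized counts in the Cal-headed libraries and 31.3, 32.9 and 25.9 in the Model-headed ones (log2 fold change 1.43 ± 0.38, limma adjusted p = 0.00904), and Dnm3 itself had a change of 1.07 ± 0.23. Chaer1, a lincRNA known from cardiac hypertrophy that was named after its values were seen, had 37.8, 25.3 and 47.0 against 19.4, 14.6 and 14.4 (1.11 ± 0.32, adjusted p = 0.0118). Of 11 entries in a list of immune and stress RNAs, AW112010, which interferon and bacterial lipopolysaccharide induce, and F630028O10Rik were in the table. AW112010 had 484, 483 and 1049.6 against 1801, 2595 and 1347 (-1.56 ± 0.36, adjusted p = 0.00503). Its library Cal 3 stood at more than the other Cal-headed libraries but under every Model-headed library. F630028O10Rik was weak in all libraries and was lower in the Cal-headed ones (-2.06 ± 0.56). No entry matched any of 8 names or name families of small structural RNAs looked for.

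**Figure D3:**
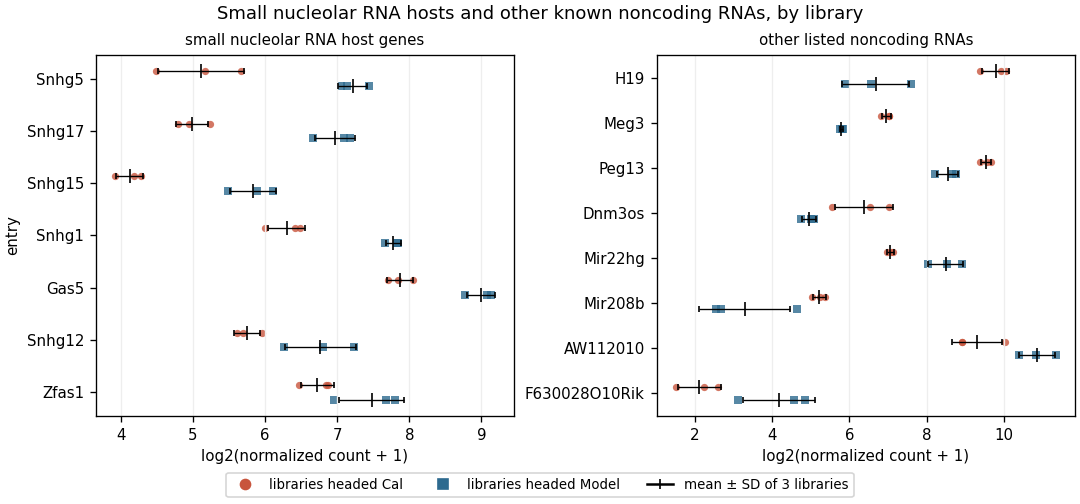
Points are single libraries on a log2(normalized count + 1) scale (x axis) for 7 small nucleolar RNA host genes and 8 other known noncoding RNAs (y axis), with circles for Cal-headed libraries, squares for the Model-headed ones, and the mean ± SD of 3 libraries as a tick with a bar. All 7 hosts are higher in the Model-headed libraries, and H19, Meg3 and Peg13 are higher in the Cal-headed ones.

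The 7 polymorphic pseudogenes are given in full, a choice made after their values were seen, because their biotype turns on the mouse strain: several are broken in the laboratory mouse and may be intact in the rat. Beside Cxcl11 and Gbp11, Mx2, an antiviral GTPase, had 176, 199 and 791 normalized counts in the Cal-headed libraries and 877, 3535 and 1696 in the Model-headed ones (log2 fold change -2.52 ± 0.67, limma adjusted p = 0.0088). Cal 3 came close to Model 1 without passing it. Oas1b, of the oligoadenylate synthetases that sense viral RNA, had 116, 70.4 and 209 against 256, 344 and 209.9 (-1.14 ± 0.39, adjusted p = 0.0221), and here too Cal 3 was just under Model 3, the lowest of the other group. H2-T10, a nonclassical class I histocompatibility gene, had 22.1, 14.1 and 32.5 against 62.6, 102 and 68.1 (-1.76 ± 0.36). Olfr753-ps1, an odorant receptor, was listed at 0 in all Cal-headed libraries and had 5.40, 12.2 and 0.958 in the others. Pcdhgb8, of the gamma protocadherin cluster of cell adhesion genes, was the only one higher in the Cal-headed libraries, with 22.1, 17.8 and 22.2 against 5.40, 6.10 and 9.58 (1.46 ± 0.34).

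The most abundant entry was Gm29216, a pseudogene of 492 bases in the stretch of mouse chromosome 1 that is a nuclear copy of mitochondrial DNA. It had 5084, 5145 and 5177 normalized counts in the Cal-headed libraries and 6509.7, 6272 and 8647 in the Model-headed ones (log2 fold change -0.46 ± 0.16, limma adjusted p = 0.0249), a difference short of the limit that turned to 0.30 (adjusted p = 0.212) under quantile normalization. Its value is uncertain, since the mitochondrial genome holds the sequence it copies. Among the other abundant entries, the processed pseudogene Gm10250 and Cct6a, a subunit of the cytosolic chaperonin listed as a processed transcript, were not called, at -0.60 and -0.83. The lincRNA Gm5532 was called lower (-1.19), though not under quantile normalization (-0.70) or median-ratio scaling (-0.89). AC131339.2 was higher in the Cal-headed libraries (1571, 1694 and 1533 against 915, 941 and 1016) at 0.74, and passed the limit under those scalings (1.21 and 1.04). The entries with the smallest changes were Gm29216, the pseudogene Impdh2-ps (-0.44) and the antisense entry Gm47547 (0.44).

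Pseudogenes named after a parent gene often share its sequence, so their values are set beside those of the parent. Of 17 entries with such names, 16 were higher in the Model-headed libraries, as were 92 of all 103 pseudogenes, and 8 were called, a smaller share than the 70.9% of all pseudogenes and the 60.1% of all listed genes. The gene with the name before -ps, taken as the parent, was listed for 6 of them. In all 6 it differed in the same direction. Ifi203-ps had 122, 86.4 and 148 normalized counts against 572, 1666 and 306 (log2 fold change -2.51 ± 0.56, limma adjusted p = 0.00469), and Ifi203, an interferon-inducible DNA sensor of the same family, changed by -2.20 ± 0.52. The pseudogene stood at 12.7% of the level of its parent in the Cal-headed libraries and 17.1% in the Model-headed ones. Gpr137b-ps, the only one higher in the Cal-headed libraries, changed by 1.17 ± 0.24 (0.95 under quantile normalization, short of the limit) and Gpr137b, a lysosomal membrane protein, by 2.10 ± 0.27.

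Among the ribosomal protein pseudogenes, the called Rps15a-ps7 had a log2 fold change of -1.32 (-0.93 with a pseudocount of 10) beside -0.57 for Rps15a. Neither Rps6-ps4 (-0.68, beside -0.67 for Rps6) nor Rpl3-ps1 (-0.54, beside -0.82 for Rpl3) was called. These pseudogenes stood at 0.815% to 10.2% of the parent in the Cal-headed libraries. Cd63-ps changed by -1.26 (-0.96 under median-ratio scaling), and Cd63, a membrane protein of late endosomes, had -0.56 on the same scale. Only the name before -ps was searched for, and for the other 11 no gene of that name was in the table. Of these, Rps2-ps13, Rpl17-ps3, Eif4a-ps4, Nudc-ps1, Rab11b-ps2, Pdcd5-ps and Impdh2-ps had log2 fold changes from -0.79 to -0.44 and were not called, while Rps26-ps1 was called at -1.63 and Vhl-ps1 and Olfr753-ps1 were listed at 0 in all Cal-headed libraries. Slfn10-ps, of the interferon-inducible Schlafen family, had 8.30, 12.2 and 15.4 against 139, 215 and 52.7 (-3.22 ± 0.52). The values of pseudogenes that share reads with a parent are uncertain, and how reads that match several places were counted is not given in the sources used here.

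On the deposited mouse coordinates, 48 of the 281 entries overlapped another listed gene, in 50 pairs that count E130102H24Rik and 0610043K17Rik both ways. In 45 of the 50 pairs both genes differed in the same direction, in 32 of 34 on opposite strands and in 13 of 16 on the same strand. Some shared direction arises without any link, since 197 of the 281 entries and 2317 of the 4288 listed genes were lower in the Cal-headed libraries. Where both were called, 27 of 30 pairs went the same way. Without strand, reads of one partner can count for the other, and their part in these differences was not tested.

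The sizes within a pair often differed. Against Gm10851 and Gm37975 at -6.80 and -5.73, Pfkfb3 had 2616, 5439 and 6596 normalized counts in the Cal-headed libraries and 7951, 10226 and 8021 in the Model-headed ones, a log2 fold change of -0.93 ± 0.33. Against Cxcl11, the opposite gene Art3, of the ADP-ribosyltransferase family, had 3276, 3639.9 and 3821 against 5560.4, 7522 and 7084 (-0.90 ± 0.16). Here the fold change of the entry was far beyond that of the abundant gene around it, a difference that was not tested. Gm5970 lay within Gm4951, an interferon-inducible GTPase, which changed by -4.34 ± 0.80, and Gm16464 (-2.04) lay within Trim30d (-3.35). The processed transcript Gm27252 (-2.08) lay opposite Klf13 (-0.59), a zinc finger factor.

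The pairs that went opposite ways, named after their values were seen, were Gm15849 (-2.64) with Tmcc2 (1.25), Gm23935 with Zc3h7a (-1.45), Pdcd5-ps (-0.56) with the potassium channel gene Kcnk2 (3.07), and Pcdhgb8 with Pcdhgb5 (-1.55) and Pcdhgb2 (-0.98). Pcdhgb8 also overlapped Pcdhga12, which went the same way (1.61).

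**Figure D4:**
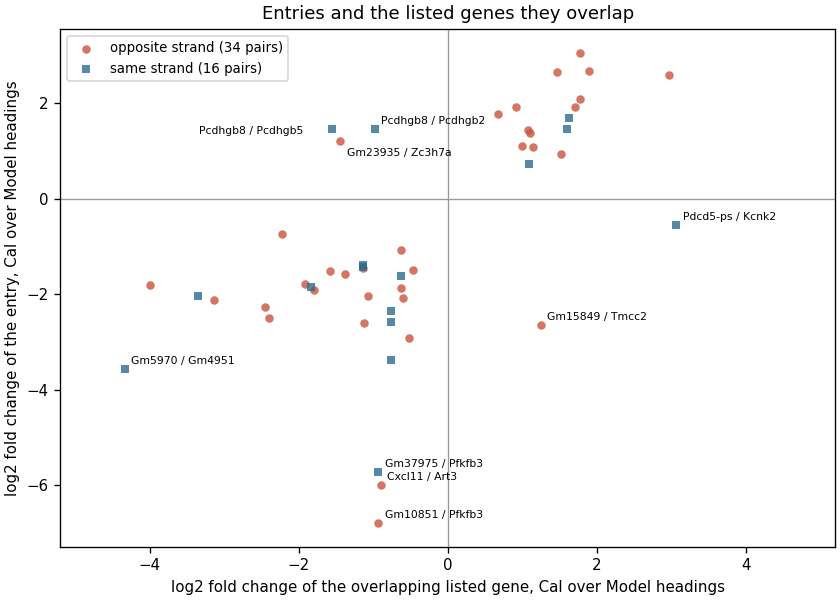
Each point is a pair of an entry and a listed gene that overlaps it on the deposited mouse coordinates, with the log2 fold change of the overlapping gene on the x axis and that of the entry on the y axis (Cal-headed libraries over the Model-headed ones); circles are pairs on opposite strands and squares pairs on the same strand. Of 50 pairs, 45 lie in the lower left or upper right, and Gm10851, Gm37975 and Cxcl11 lie far below their partners.

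The model and sham table held values of the Cal-headed and Con-headed libraries, the latter being the sham group, and 46 of the 281 entries were listed there too. Its sample columns headed Cal average to the column that the authors head Model, and it has no sample column headed Model. By the mean columns, each change given below for this table would be model over sham and not Cal over sham. The reads of the Cal-headed libraries were identical in both tables for all 46, so the comparisons share those libraries and are given side by side only. Against the Con-headed libraries, 26 of the 46 were called, 18 higher and 8 lower in the Cal-headed libraries, where 29% of all 2458 genes of that table were called, 18% higher and 10.9% lower.

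Cxcl11 had 0, 0.982 and 0 normalized counts in the Con-headed libraries and 7.22, 20.0 and 101 in the Cal-headed ones (log2 fold change Cal over Con 4.37 ± 0.89, limma adjusted p = 0.00288). Mx2 had 30.7, 143 and 36.4 against 197, 223 and 882 (2.61 ± 0.69, adjusted p = 0.00772), and Oas1b had 38.2, 59.9 and 25.3 against 130.0, 78.9 and 233 (1.76 ± 0.43, adjusted p = 0.00558). Cxcl11 had 1 read in all in the Con-headed libraries, and the ratio of its means was 130.5-fold (95% exact interval 24.1 to 5446, for counting error only). These antiviral genes were at their lowest in the Con-headed libraries, and their groups did not overlap. Serpina3h (3 reads in all in the Con-headed libraries, a ratio of means of 11.5-fold with an interval of 3.46 to 56.4), Gm5970 (2.80) and Dnm3os (1.72) were also called higher in the Cal-headed libraries than in the Con-headed ones.

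Other entries went the opposite way. Gm12002 had 164, 253 and 238 in the Con-headed libraries and 93.9, 67.4 and 70.5 in the Cal-headed ones (-1.48 ± 0.22, limma adjusted p = 0.000718). Gm32688, listed at 0 in every Model-headed library, had 26.1, 43.2 and 35.4 in the Con-headed ones and 11.3, 11.6 and 20.0 in the Cal-headed ones (-1.25 ± 0.34). Both were thus highest in the Con-headed libraries. F630028O10Rik was called lower in the Cal-headed libraries than in the Con-headed ones (-2.49), and Peg13 had a change of -0.40, Zfas1 of 0.93 and Mir22hg of 0.71, none of these last called.

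**Figure D5:**
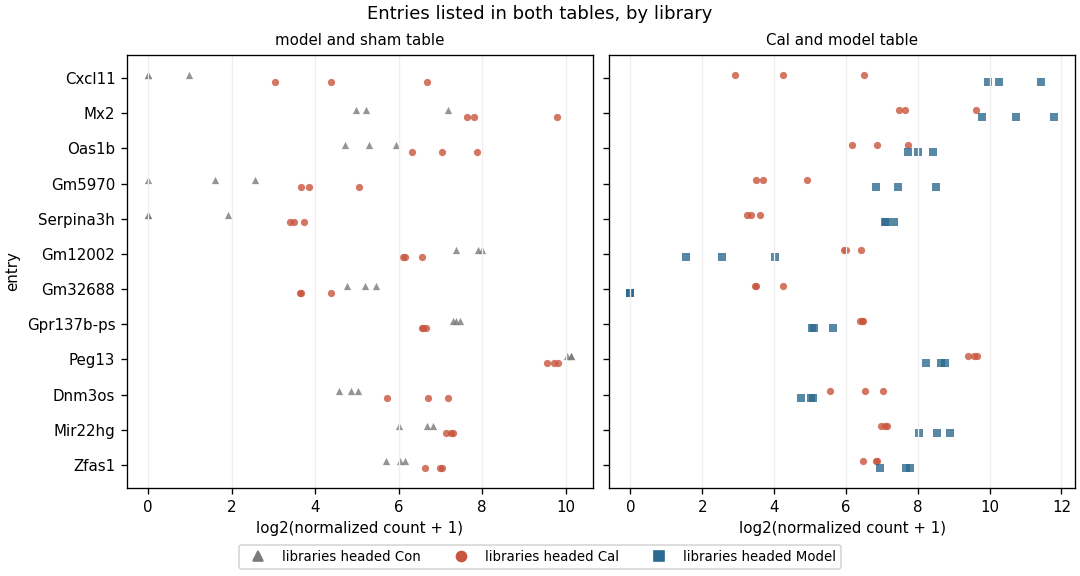
Points are single libraries on a log2(normalized count + 1) scale (x axes) for 12 entries listed in both tables (y axis), with triangles for Con-headed libraries, circles for the Cal-headed ones and squares for the Model-headed ones; each panel uses the size factors of its own table, and the Cal-headed libraries are the same in both. Cxcl11 is near 0 in the Con-headed libraries and highest in the Model-headed ones, while Gm12002 and Gm32688 are highest in the Con-headed ones.

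Few of these entries carry a name known in the rat. A symbol of the rat RefSeq annotation matched 20 of 281 entries (7.12%), against 92.3% of 4001 protein-coding genes. By class the match held for 9 long noncoding RNAs, 10 pseudogenes, 1 microRNA and no TEC entry. Of the 20, RefSeq lists 9 as protein-coding in the rat (Cct6a, Cxcl11, Ifi30, Lsmem2, Mx2, Oas1b, Pcdhgb8, Prr33 and Trerf1), 4 as long noncoding, 6 as pseudogenes and 1 as a microRNA. A numbered pseudogene with the same symbol in both species need not be the same locus. Names of the Gm kind, given to mouse gene models without a better name, made up 157 entries (55.9%) and 0.775% of protein-coding genes, and names of the Rik kind, from a mouse complementary DNA collection, made up 55 entries.

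A difference in each listed marker of a cell type was fixed beforehand, since the table holds only genes that passed the authors' test. None of 9 cardiomyocyte markers was in the table, which lists only genes that passed the authors' threshold, so the labelled tissue could not be checked by them. Of 5 endothelial markers, 3 were listed and higher in the Cal-headed libraries, with a summed level of 6982 to 8848 against 2795 to 3806 normalized counts, and Kdr, Pecam1 and Vwf were all well above 0. Of 8 leukocyte markers, 4 were listed, with Lyz2 and Cd68 higher and S100a8 and S100a9 lower in the Cal-headed libraries. Of 5 fibroblast markers, Col1a1 and Col3a1 were higher and Dcn lower, and 2 of 4 smooth muscle markers were higher. Short of the limit of 1 were Vwf (0.99), Cd68 (0.81), Col3a1 (0.85), Dcn (-0.68), Acta2 (0.55) and Myh11 (0.60), as log2 fold changes. The part of these cell types in the differences of the entries was not tested. In whole tissue, fewer cells of a type and less RNA per cell cannot be told apart.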

How the data were processed

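Reads per gene were counted and normalized by the authors with DESeq2, who deposited a table for the Cal and model groups and another for the model and sham groups. A deposited sample value is a signal, the count over a size factor of the library, and 100% of the values were whole reads within 0.01. The submitters' processing notes list Bowtie 0.12.2, mm8 and mm9, without saying what each was used for. The authors' own log2 fold changes and adjusted p-values were deposited too and were not used, except to check that every listed gene passed their threshold. Depth beyond the listed genes is unknown, which limits how low a level can be read, and the replicates are separate animals by the methods of the paper.

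Tests were run on log2(normalized count + 1) with limma 3.58.1 (trended prior variance) in R 4.3.3, with Benjamini-Hochberg adjustment over all listed genes of a table. An entry was called with an adjusted p below 0.05 and a change beyond 1 on the log2 scale. The design had allowed for counts as the unit, and the values turned out to be scaled counts. Shares were compared by exact two-sided permutation tests in scipy 1.17.1. Folds against a group at 0 used a floor of 3 reads per library, which covers counting error only. On simulated data with 200 of 4288 genes shifted by 2 on the log2 scale, limma found 99.5% of them and made 2 false calls. The shifted genes all had a mean of at least 10, every gene had the same dispersion between replicates, and the rest were unchanged. The deposited data differ in each of these, so the rate is not the power for the entries described here. The settings varied were the pseudocount (0.1 or 10), a filter on means under 10, quantile normalization, median-ratio scaling, the limits of the call (no limit on the fold, or an adjusted p below 0.01), the count tests edgeR 4.0.16 and DESeq2 1.42.0 on recovered reads, a block for the replicate number, and each library left out in turn.

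The members and lists were chosen with earlier results of these data known. Entries named are the 10 largest rises and falls among called entries with groups apart and a mean of 50 or more in the higher group, members of the lists, the 10 most abundant, pseudogenes named after a parent, the 6 overlapping entries with the largest changes and the 3 smallest changes. Others are said to be chosen after their values were seen. Rat symbols and sequences are RefSeq, GRCr8. Overlap means at least 1 shared base of the deposited gene spans.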

Additional observations from a re-analysis of the deposited data

How the results depend on the processing

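Of 281 entries, 228 were called, and leaving out each library in turn gave 201 to 229. A pseudocount of 10 gave 150, with 40 higher in the Cal-headed libraries instead of 71, and it lowers the change of weak genes by construction. Both edgeR and DESeq2 on recovered reads called 237, 72 higher and 165 lower. Without a fold change limit, 4272 of all listed genes passed instead of 2575, and 46 of 46 entries in the model and sham table instead of 26. The share of listed normalized counts on the entries, with a difference of -0.242 percentage points (Cal-headed minus Model-headed), reversed to 1.77 points higher per kilobase. Without the most abundant entry the difference of -0.253 reversed to 1.67. With Gm23935 left out as well, an alternative added after the data were seen, the differences per kilobase were -0.475 and -0.607. Gm29216 reversed from -0.46 to 0.30 under quantile normalization.

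Over the 61 named entries, 644 values under the alternatives kept their direction and side of the threshold, 17 lost a call, 9 gained one and 1 reversed. Replicate numbers belong to different animals, and the deviations of same-numbered libraries correlated at 0.110, -0.119 and -0.0814, so the numbers were not taken to pair the samples. With the replicate number as a block, 228 entries were called, 71 higher and 157 lower, and 2574 of all listed genes. In the model and sham table these correlations were -0.0235, -0.116 and -0.140. Depth limits the 55 entries with at most 3 reads in every library of a group.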
